A study of Homo sapiens with 13 samples.

Results

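The comparison described here sets OICR623 against DFO (desferrioxamine, a clinical iron chelator) in SW480, a widely used human colon cancer line with a mutant APC gene. It uses 6 of the 13 Affymetrix Human Gene 1.0 ST arrays of the study, chosen by their labels: OICR623 1 and 2 and DFO 1 to 4. The other arrays, DMSO 1 to 4 and Deferasirox 1 to 3, entered the same model and gave the reference levels. All cells were lysed after 6 h with a compound or with 0.1% DMSO, and the series describes the replicates as independent experiments. The labels give 10 mM for OICR623, 100 mM for DFO and 50 mM for Deferasirox, doses that are high for cells in culture, and nothing in them settles whether another unit was meant. The doses of OICR623 and DFO were not matched, so compound and dose cannot be told apart in any difference below. OICR623 is known here by its code name alone.

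Iron is a cofactor of the prolyl hydroxylases that mark the hypoxia-inducible factors (HIFs) for destruction, so iron chelators are known to stabilise HIF and to raise its target genes, among them DDIT4, VEGFA and NDRG1. Iron is also needed by ribonucleotide reductase, the enzyme that makes deoxyribonucleotides, and chelators are known to stop cells in S phase. The replication-dependent histone genes are transcribed in S phase to package new DNA, and their mRNAs, which end in a stem-loop instead of a poly(A) tail, are degraded when DNA synthesis stops.

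The arrays did not share one overall signal. Their median log2 signals fell into 3 tiers, split where neighbouring medians lay over 0.05 apart: DMSO 1 and DFO 1 at 7.17 to 7.19, DMSO 4, DFO 4 and Deferasirox 3 at 6.52 to 6.55, and the other 8 arrays at 6.64 to 6.69. Both OICR623 arrays lay in the middle tier with DFO 2 and DFO 3, so each gene was fitted with the tier as a block, and single arrays are compared below within the middle tier. Across genes, OICR623 1 and 2 correlated with DFO 2 and 3 at 0.997 to 0.998, and with DFO 1 and 4 at 0.983 to 0.993. Of the intestinal epithelial markers, 14 were measured, with medians of 6.68 to 7.44 over the 6 arrays. The fibroblast (10 genes), endothelial (8) and leukocyte (9) markers had medians of 5.38 to 6.27, and 1 gene of these 4 lists, an epithelial one, had an unadjusted p under 0.05 between the compounds and 0 passed the test (limma). The values carry no detection calls, so absence of a marker could not be read from them.

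OICR623 and DFO differed in a small set of genes, most of which encode replication-dependent histones. With an adjusted p under 0.05 as the threshold (limma, Benjamini-Hochberg over 18404 genes), 31 genes passed, which is 0.168% of the genes tested, and such genes are termed called from here on. Of these, 29 were higher with OICR623 (0.158%) and 2 were lower (0.0109%). The 29 comprised 24 histone genes and KIF18A, KIF23, CKAP2L, FAM83D and OR5P2, and the 2 lower genes were DDIT4 and GPR171. The count rests on the block: without it 0 genes passed, and 60 had an unadjusted p under 0.05, against 1044 (5.67%) with it. Leaving out OICR623 2 left 8 called genes, leaving out OICR623 1 left 16, leaving out DFO 2 left 15 and leaving out DFO 3 left 17. H2AC6, H2AC20, H2AC21, H3C7, H3C8, H3C10 and H4C13 were the 7 genes called whichever array was left out.

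**Figure D1:**
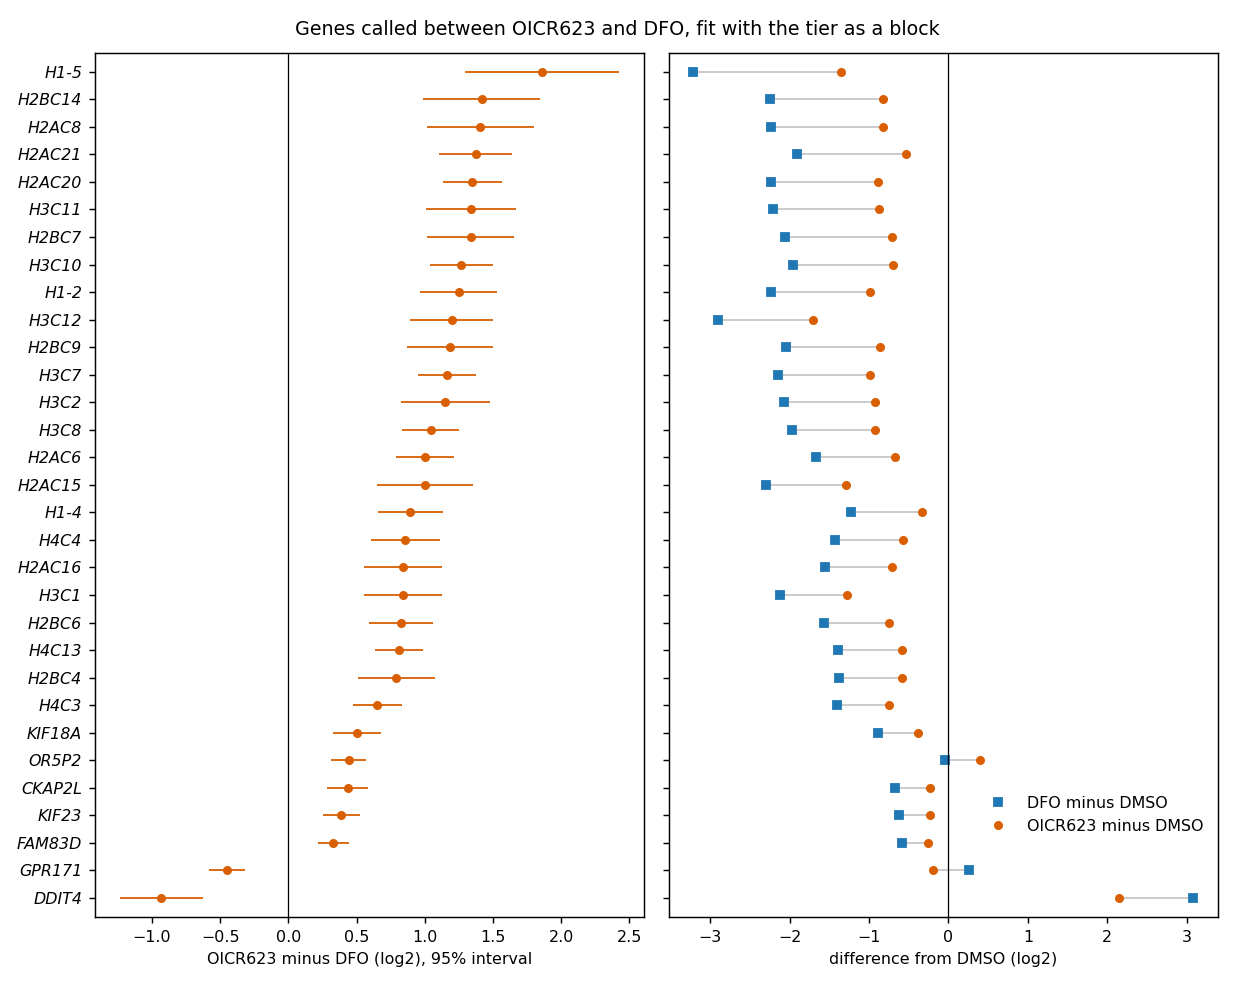
Log2 differences of the 31 called genes for OICR623 against DFO with 95% intervals (left), and for each compound against DMSO without intervals (right). The histone genes lie to the right of 0 for OICR623 against DFO and to the left of 0 for both compounds against DMSO, and DDIT4 lies on the opposite sides.

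Against the shared DMSO arrays, 135 genes were called for OICR623 (0.734%) and 847 for DFO (4.6%). The groups differ in size, with 2 arrays of OICR623 and 4 of DFO, so these counts do not compare the strength of the compounds. Without the block 7 and 45 genes were called, and leaving out OICR623 1 left 33 for OICR623. The DMSO arrays serve in both comparisons, and values against DMSO are given below side by side for each gene. In bulk RNA of this kind, fewer cells in S phase and less histone mRNA in each such cell cannot be told apart.

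H1-5, a linker histone that binds DNA between nucleosomes, showed the largest difference of the called genes. Its log2 signal was 9.91 and 10.51 in OICR623 1 and 2, and 9.26, 8.23, 8.28 and 7.62 in DFO 1 to 4. DMSO 2 and 3, the solvent arrays of the middle tier, stood at 11.37 and 11.50. Both OICR623 arrays lay above all 4 DFO arrays and below both of these DMSO arrays, and they differed from each other more than DFO 2 and 3 did. The fitted difference between OICR623 and DFO was 1.86 on the log2 scale (SE 0.26, 95% interval 1.30 to 2.42, 3.63-fold, limma adjusted p = 0.0158). H1-5 lay 1.35 below DMSO with OICR623 and 3.21 below it with DFO, in log2 units. Its call was lost without OICR623 2 (limma adjusted p = 0.242), without DFO 2 (0.0951) and without DFO 3 (0.0843). It was also lost with a variance trend and robust variances (0.078), over all transcript clusters (0.0764), with the replicate block alone (0.318), and with no block, where the limma adjusted p was 0.155 for centred, 0.0965 for quantile-normalized and 0.9999 for unscaled arrays.

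The promoter stretches of the leading called gene of each histone class are shown because these genes, which lie in clusters and share promoter elements, moved together. Each runs over the 200 bases before the annotated start, 5′ to 3′ on the gene's strand, from RefSeq on GRCh38.p14, and the leading gene is the called one of largest difference with an entry in the promoter table. The stretches lie at chr6:27867589-27867788 (minus strand) for H1-5, chr6:26216721-26216920 (plus) for H2AC8, chr6:27814822-27815021 (plus) for H2BC14, chr6:27809851-27810050 (plus) for H3C10 and chr6:26189113-26189312 (minus) for H4C4. Capitals mark the TATA-box letters TATAA, the box CCAAT, the H1 element AAACACA and the octamer ATTTGCAT, on either strand.
H1-5: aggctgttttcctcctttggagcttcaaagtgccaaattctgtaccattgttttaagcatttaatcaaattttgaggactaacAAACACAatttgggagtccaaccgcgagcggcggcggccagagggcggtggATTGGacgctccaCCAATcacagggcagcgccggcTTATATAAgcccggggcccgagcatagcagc
H2AC8: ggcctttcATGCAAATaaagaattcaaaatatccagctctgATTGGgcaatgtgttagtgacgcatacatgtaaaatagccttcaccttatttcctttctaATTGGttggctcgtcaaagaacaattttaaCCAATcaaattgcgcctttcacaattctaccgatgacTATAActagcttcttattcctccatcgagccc
H2BC14: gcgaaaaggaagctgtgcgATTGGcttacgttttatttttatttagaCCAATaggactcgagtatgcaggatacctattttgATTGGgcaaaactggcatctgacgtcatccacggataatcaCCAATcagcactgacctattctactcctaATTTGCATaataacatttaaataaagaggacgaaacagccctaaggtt
H3C10: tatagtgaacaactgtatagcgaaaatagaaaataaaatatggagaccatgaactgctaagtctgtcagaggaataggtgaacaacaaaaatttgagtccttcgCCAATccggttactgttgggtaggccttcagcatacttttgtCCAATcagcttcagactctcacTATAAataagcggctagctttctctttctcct
H4C4: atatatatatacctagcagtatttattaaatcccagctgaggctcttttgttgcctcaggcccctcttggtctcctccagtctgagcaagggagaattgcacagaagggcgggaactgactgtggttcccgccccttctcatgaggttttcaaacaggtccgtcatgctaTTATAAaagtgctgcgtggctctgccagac
Over the 250 bases before the start, 20 of the 21 called histone genes with an entry held TATAA, the core TATA-box letters, against 18.9% of all 35116 promoters in the table. A match counted wherever it lay. In H2BC14, H2BC7 and H2BC9 the single match started at −218, −196 and −244, on the opposite strand. In H2BC6 the matches started at −192 and −189, whereas H3C10, for example, held one at −32. CCAAT was held by 20 of the 21 against 32.0%. The octamer ATTTGCAT, the site of the POU factor Oct-1 and known from H2B promoters, was held by 5 of 5 called H2B genes and 5 of 6 called H2A genes, by 0 of the called H1, H3 and H4 genes, and by 1.63% of all promoters. AAACACA, known from H1 promoters, was held by all 3 called H1 genes, by 0 of the other called histone genes, and by 4.82% of all promoters. The promoters of H2AC6 and H2BC4 overlap, so they share letters. These are matches of letters on either strand, counted as a description. Histone genes that were not called were not counted, so the shares do not set the called genes apart from other histone genes.

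H2AC20, a core H2A histone gene, had the smallest adjusted p. Its log2 signal was 9.83 and 10.02 with OICR623, 9.89, 8.49, 8.52 and 8.47 in DFO 1 to 4, and 10.78 and 10.86 in DMSO 2 and 3. Within the middle tier the OICR623 arrays lay above DFO and below DMSO with no overlap, and DFO 1, of the high tier, lay within their range before centring. The difference between OICR623 and DFO was 1.35 (SE 0.10, 95% interval 1.13 to 1.56, 2.54-fold, limma adjusted p = 0.000763). The log2 difference from DMSO was −0.89 with OICR623 (limma adjusted p = 0.0021) and −2.23 with DFO.

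The other called histone genes showed the same order of groups. For all 24, both OICR623 arrays lay above DFO 2 and 3 and below DMSO 2 and 3. H2BC14, an H2B gene, read 12.47 and 12.74 with OICR623 and 11.79, 10.999, 11.18 and 10.64 with DFO, a log2 difference of 1.42 (SE 0.19, 2.67-fold, limma adjusted p = 0.0158). H2AC8, an H2A gene at lower signal, read 6.13 and 6.14 with OICR623 and 6.51, 4.94, 4.59 and 4.20 with DFO, a difference of 1.41 (SE 0.18, limma adjusted p = 0.011). For H2BC14 all 4 DFO arrays lay below the OICR623 arrays, and for H2AC8 DFO 1 lay above them before centring. H3C10, an H3 gene, read 7.31 and 7.30 with OICR623 and 7.35, 5.93, 5.90 and 6.40 with DFO, a difference of 1.27 (SE 0.10, limma adjusted p = 0.000975). H3C12, also an H3 gene, read 7.15 and 7.03 with OICR623, 6.47, 6.00, 5.90 and 5.20 with DFO, and 8.77 and 8.54 in DMSO 2 and 3. Its difference between the compounds was 1.20 (SE 0.14, limma adjusted p = 0.00637), and among the called histone genes it lay farthest below DMSO with OICR623, at −1.70, against −2.90 with DFO. H1-4, the called histone gene of highest signal described here, read 13.13 and 13.25 with OICR623 and 12.90, 12.22, 12.22 and 11.98 with DFO. It lay 0.89 higher with OICR623 (SE 0.11, limma adjusted p = 0.00791), and its log2 difference from DMSO was −0.34 with OICR623 and −1.23 with DFO. H2AC8, H2BC14, H3C12 and H1-4 were not called without OICR623 1 or without OICR623 2, and H2BC14 was not called without DFO 2 or DFO 3, nor H2AC8 without DFO 3.

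**Figure D2:**
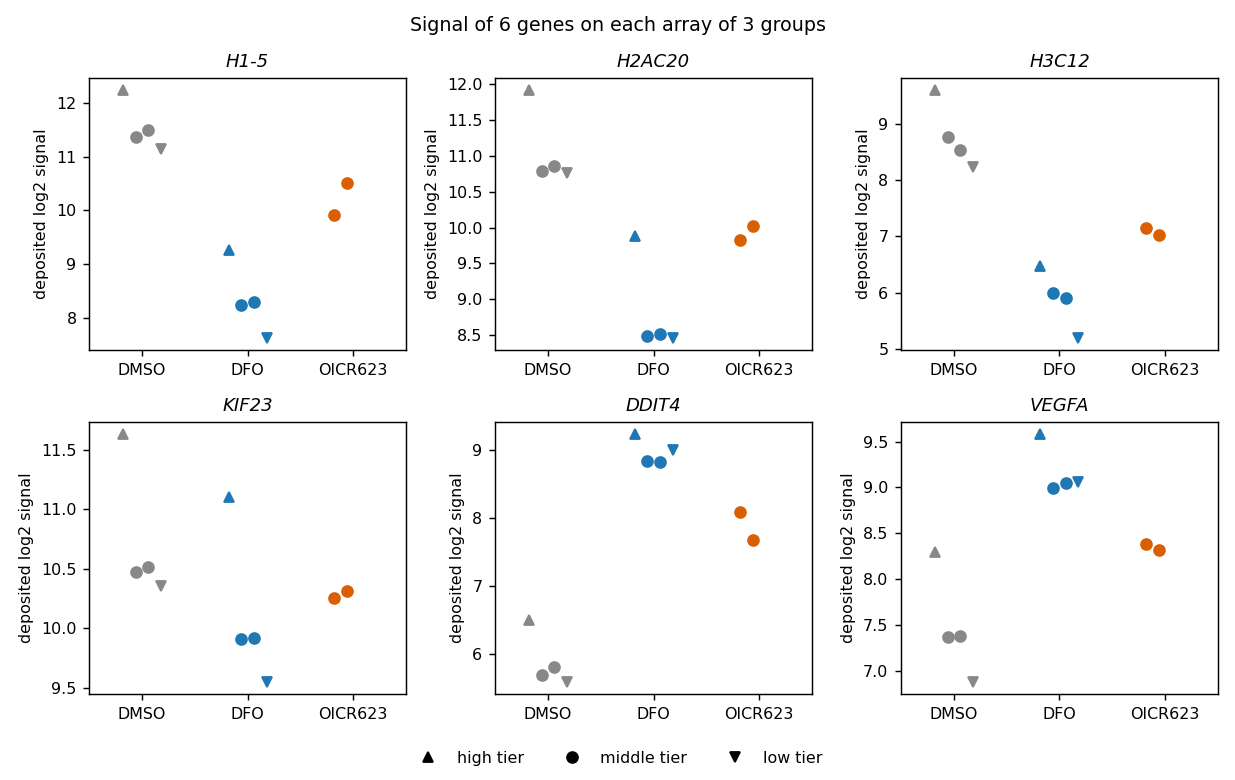
Deposited log2 signal (vertical axis) of H1-5, H2AC20, H3C12, KIF23, DDIT4 and VEGFA on each DMSO, DFO and OICR623 array, with the symbol showing the tier. Among the circles, the middle-tier arrays, OICR623 lies above DFO and below DMSO for the histone genes and KIF23, and below DFO and above DMSO for DDIT4 and VEGFA.

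By symbol alone (H1-1 to H1-6 and the H2AC, H2BC, H3C and H4C names), 56 histone genes were measured. This set is larger than the 45 of the fixed list, and the replication dependence of each member was not checked. Of the 56, 24 were higher with OICR623, 0 lower and 32 not called, where 0.158% of all genes were called higher. The difference lay above 0 in 53 of the 56, with a median of 0.72, against a median of 0.0014 over all genes tested. In the middle tier both OICR623 arrays lay above both DFO arrays for 49 of the 56, against 14.1% of all genes. In all 6 centred arrays OICR623 lay above DFO with no overlap for 35 of the 56, against 3.64% of all genes, and below it for 1, H1-6, against 6.58%. Of the 45 histones of the fixed list, 26 were called lower than DMSO with OICR623, where 0.397% of all genes were, and 43 with DFO, where 2.72% were. The median difference from DMSO over the 56 was −0.63 with OICR623, −1.40 with DFO and −1.25 with Deferasirox.

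The classes differed in how many members were called. H3 genes had 7 of 8 called, with differences of 0.84 to 1.34 among the called and a class median of 1.16. H2A genes had 6 of 14 called (0.84 to 1.41, class median 0.78), and H2B genes had 5 of 16 (0.79 to 1.42, class median 0.56). H1 genes had 3 of 6 called (0.89 to 1.86, class median 0.49), and H4 genes had 3 of 12 (0.65 to 0.86, class median 0.54). Differences between the classes were not tested. Among those not called, H2BC13 had the largest difference, 1.03, and H1-1, H1-6 and H2AC13 were the 3 below 0, at −0.01, −0.09 and −0.14. The H2AC13 signal was very low, at 2.13 to 3.22 over the OICR623 and DFO arrays. Another cluster, annotated to both H3C10 and H2AC13 and so left out of the gene fit, was higher with OICR623 by 1.44 over all clusters. Copies of a core histone are nearly identical in sequence and probes can be shared between them, so which copy a signal belongs to is uncertain, and the copies are not independent of each other.

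Other genes that lie among the histone genes were not called. Of the called histone genes 22 lie on chromosome 6, and between the outermost of them lie 15 other protein-coding genes, of which 14 were measured. Of these 14, limma called 0, and 2 had an unadjusted p under 0.05, where 5.67% of all genes did. Their differences ran from −0.11 (ZNF322, a zinc-finger gene) to 0.21 (BTN3A1, a butyrophilin gene), with a median of 0.02 between the compounds and −0.03 for DFO against DMSO.

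Histone genes outside the replication-dependent class did not show such differences in this test. Of 8 replication-independent histone variants measured, limma called 0, with 0 at an unadjusted p under 0.05, and the median difference was 0.03. Of 15 genes for histone mRNA processing and transcription, limma called 0, with 1 at an unadjusted p under 0.05, and the median was −0.02. RRM2, the iron-containing subunit of ribonucleotide reductase, differed by −0.04 (95% interval −0.17 to 0.09), and of the 12 genes of ribonucleotide reductase and nucleotide supply limma called 0, with 0 at an unadjusted p under 0.05.

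DDIT4, which encodes REDD1, an inhibitor of mTORC1 and a HIF target, was the gene with the largest difference in the other direction. Its log2 signal was 8.09 and 7.68 in OICR623 1 and 2, 9.24, 8.84, 8.84 and 9.004 in DFO 1 to 4, and 5.69 and 5.82 in DMSO 2 and 3. Both OICR623 arrays lay below all 4 DFO arrays and above the DMSO arrays. DDIT4 was 1.91-fold higher with DFO, a log2 difference of −0.93 for OICR623 (SE 0.14, 95% interval −1.24 to −0.63, limma adjusted p = 0.028). Against DMSO it was higher by 2.14 with OICR623 (limma adjusted p = 6.9e-05) and by 3.08 with DFO. The call was lost without OICR623 2 (limma adjusted p = 0.279) and without each of DMSO 2, DMSO 3, DFO 2, DFO 3, DFO 4, Deferasirox 1 and Deferasirox 2. Over all alternatives its adjusted p ran from 0.000833 to 0.9999, the latter without the block.

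The 250 bases before the start of DDIT4, on the plus strand at chr10:72273674-72273923 of GRCh38.p14 from RefSeq, are shown because DDIT4 was the called HIF target. Capitals mark ACGTG or GCGTG, the core letters of the hypoxia response element, searched on both strands.
DDIT4: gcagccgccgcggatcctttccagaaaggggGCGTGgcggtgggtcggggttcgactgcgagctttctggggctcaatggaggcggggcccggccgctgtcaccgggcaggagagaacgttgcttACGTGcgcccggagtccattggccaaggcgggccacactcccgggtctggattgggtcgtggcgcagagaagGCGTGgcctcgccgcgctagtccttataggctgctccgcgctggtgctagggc
There were 3 matches, starting at bases −219, −125 and −53 from the start site. Such a match was held by 43.2% of all promoters, by 26 of the 32 measured HIF targets with an entry, and by 3 of the 21 called histone genes.

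DDIT4 was the only called gene of the 38 measured HIF targets outside glycolysis, a count of 0 higher and 1 lower. The difference was below 0 for 34 of the 38 (89.5%, against 49.2% of all genes), with a median of −0.17, and 14 had an unadjusted p under 0.05 in that direction, against 2.71% of all genes. Against the DMSO arrays, 13 of the 38 were called higher with OICR623, where 0.337% of all genes were, and 25 with DFO, where 1.89% were. The mean signal of the list in the middle tier was 8.72 and 8.62 with OICR623, 8.88 and 8.89 with DFO, and 8.13 and 8.12 in DMSO 2 and 3.

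VEGFA, the vascular endothelial growth factor gene, read 8.38 and 8.31 with OICR623, 9.58, 8.996, 9.04 and 9.06 with DFO, and 7.37 and 7.38 in DMSO 2 and 3. The OICR623 arrays lay below all DFO arrays, but the difference of −0.66 (95% interval −0.98 to −0.34) did not pass the test over all genes (limma adjusted p = 0.207). For ADM, the adrenomedullin gene, the difference was −0.37 (95% interval −0.67 to −0.07), with 1.78 above DMSO for OICR623 and 2.15 for DFO. EGLN3, a HIF prolyl hydroxylase and itself a HIF target, differed by −0.27 (−0.55 to 0.01), with 1.71 and 1.98 above DMSO. Neither ADM nor EGLN3 was called between the compounds. IGFBP3, PFKFB3 (of the glycolysis list), ANGPTL4, KDM3A and STC2, chosen after their values were seen, had differences of −0.65, −0.58, −0.52, −0.43 and −0.40 and were not called.

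Other HIF targets differed by less between the compounds. NDRG1, a stress-response gene raised by iron chelators, read 11.71 and 11.74 with OICR623, 12.11, 11.88, 11.90 and 11.91 with DFO, and 10.55 and 10.42 in DMSO 2 and 3. Its difference between the compounds was −0.11 (95% interval −0.32 to 0.10), against 1.21 above DMSO for OICR623 and 1.32 for DFO. ARRDC3, an arrestin-family gene, read 11.36 and 11.33 with OICR623, 11.74, 11.55, 11.52 and 11.37 with DFO, and 9.10 in both middle-tier DMSO arrays. It differed by −0.14 (−0.29 to 0.01), against 2.20 and 2.34 above DMSO. SLC2A1 and SLC2A3, glucose transporter genes chosen after their values were seen, differed by −0.02 (−0.18 to 0.14) and −0.06 (−0.37 to 0.26). For NDRG1, ARRDC3, SLC2A1 and SLC2A3 alike, both OICR623 arrays lay below DFO 2 and 3, where 15.7% of all genes did. Of 22 glycolysis and glucose uptake genes limma called 0, and the median difference was −0.02. At an unadjusted p under 0.05 were 4 of them, all lower, where 2.71% of all genes were in that direction. The intervals show how large a difference these arrays leave possible, and do not show that the compounds act alike.

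**Figure D3:**
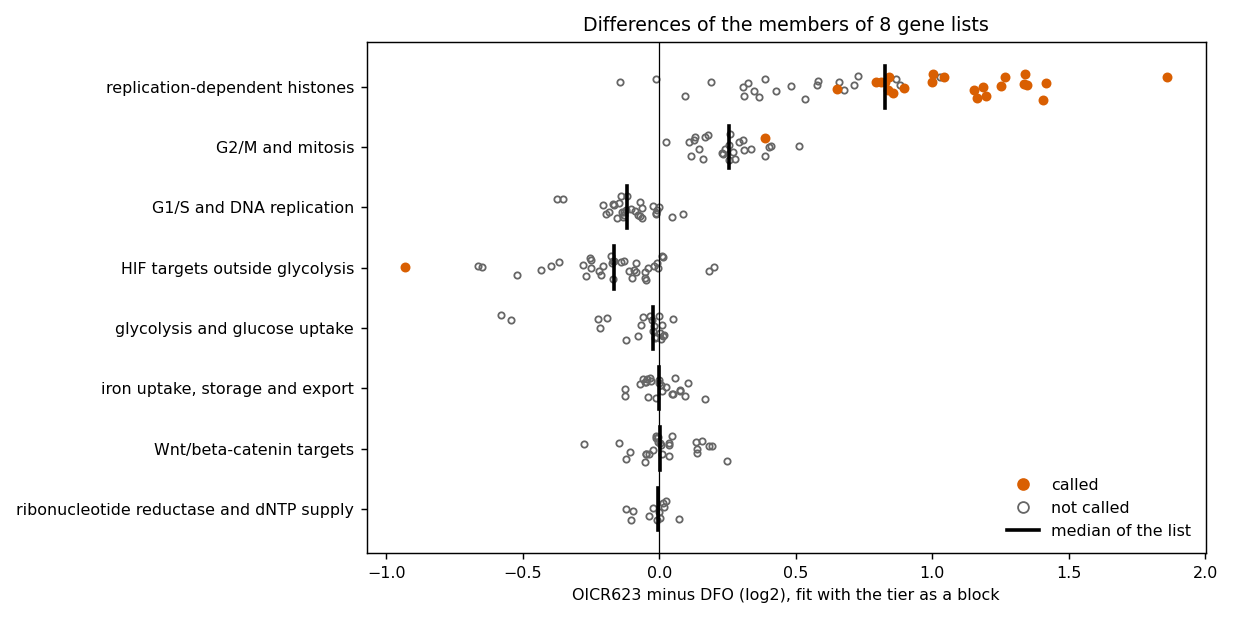
Log2 difference of OICR623 against DFO for each measured gene of 8 lists, with filled points for called genes and a bar at the list median. Of the 45 replication-dependent histones 43 lie to the right of 0, the HIF targets outside glycolysis and the G1/S genes mostly to the left, and the iron genes around 0.

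Genes of the cell cycle differed by less than the histones. Of 26 measured genes of G2/M and mitosis, 1 was called higher, KIF23, a kinesin of the central spindle, where 0.158% of all genes were. The difference lay above 0 in 26 of the 26, with a median of 0.26, and 20 had an unadjusted p under 0.05, against 2.97% of all genes. KIF23 read 10.26 and 10.31 with OICR623, 11.10, 9.91, 9.91 and 9.55 with DFO, and 10.47 and 10.52 in DMSO 2 and 3, so that in the middle tier OICR623 lay between them. Its difference was 0.39 (SE 0.06, 95% interval 0.25 to 0.52, limma adjusted p = 0.0435). That call was lost under 12 of the 13 omissions of 1 array, and was kept without DMSO 4.

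KIF18A, CKAP2L and FAM83D, mitotic genes outside the lists, were called too. KIF18A, a kinesin that dampens chromosome movement, was higher by 0.50 (SE 0.08, limma adjusted p = 0.0435), with 8.98 and 8.91 for OICR623 against 9.66, 8.47, 8.32 and 8.24 for DFO. CKAP2L, a spindle protein gene, was higher by 0.43 (limma adjusted p = 0.0377), and FAM83D, which helps align chromosomes, by 0.33 (limma adjusted p = 0.0353). Of the 13 omissions of 1 array, KIF18A stayed called in 4, CKAP2L in 3 and FAM83D in 1, and all 3 calls were lost without DFO 2, DFO 3, OICR623 1 or OICR623 2. AURKA and PLK1, mitotic kinase genes chosen after their values were seen, differed by 0.51 (limma adjusted p = 0.0672) and 0.39 (0.101) and were not called.

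Of 30 measured genes of G1/S and DNA replication limma called 0. The difference lay below 0 in 28 of the 30 (93.3%, against 49.2% of all genes), with a median of −0.12, and 11 had an unadjusted p under 0.05 in that direction, against 2.71% of all genes. CCNE2, a cyclin of the G1/S transition, read 10.28 and 10.15 with OICR623, 11.71, 10.53, 10.55 and 10.68 with DFO, and 9.69 and 9.56 in DMSO 2 and 3. The OICR623 arrays lay below all DFO arrays, and the difference of −0.35 (95% interval −0.50 to −0.21) was not called (limma adjusted p = 0.0859).

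**Figure D4:**
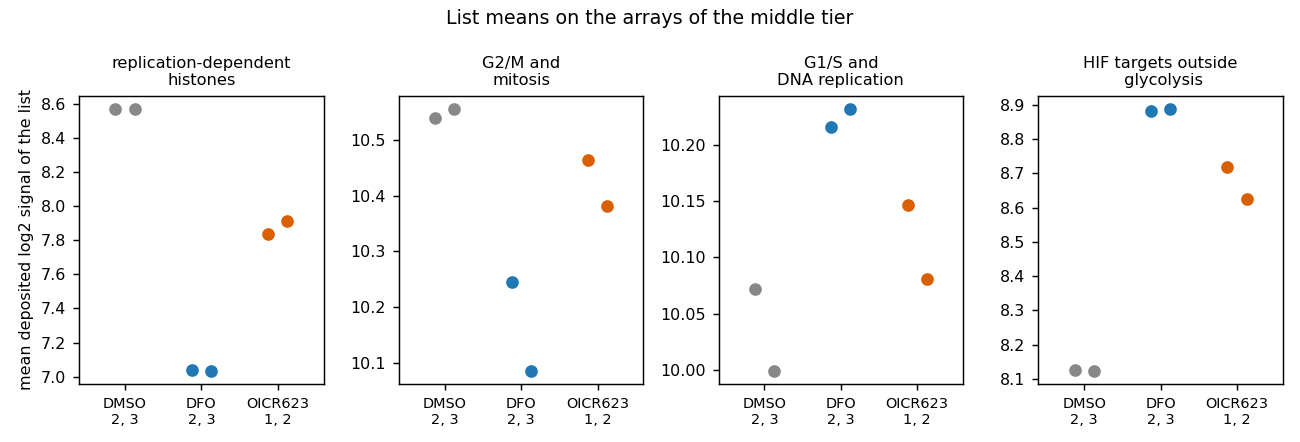
Mean log2 signal of 4 gene lists in the middle-tier arrays of DMSO, DFO and OICR623, 1 point per array. The OICR623 histone means of 7.84 and 7.91 lie between 7.04 and 7.03 for DFO and 8.57 and 8.57 for DMSO.

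The means of several lists in the middle tier placed OICR623 between DFO and DMSO. For the 45 replication-dependent histones of the fixed list they were 7.84 and 7.91 with OICR623, 7.04 and 7.03 with DFO, and 8.57 in both DMSO arrays. For G2/M and mitosis they were 10.46 and 10.38 with OICR623, 10.25 and 10.09 with DFO, and 10.54 and 10.56 in DMSO. For G1/S they were 10.15 and 10.08, 10.22 and 10.23, and 10.07 and 10.00 in the same order. The groups did not overlap within the middle tier for histones, HIF targets, G2/M or G1/S, and each group had 2 arrays there. For G1/S the margin was small, with OICR623 2 at 10.081 and DMSO 2 at 10.072. The same order without overlap was seen in further lists, among them glycolysis, ATF4 targets and immediate early genes. It is therefore not particular to the lists named. In others, such as iron uptake, the groups overlapped, and the order was not counted over all lists. Over all genes the mean signal of these 6 arrays ran from 7.43 to 7.45. A place between DFO and DMSO was not particular to OICR623. Deferasirox 1 and 2, also of the middle tier, lay between them for histones (7.25 and 7.41) and G1/S (10.17 and 10.21). They did so for G2/M too (10.32 and 10.249), narrowly above DFO 2 at 10.245. For HIF targets Deferasirox (8.89 and 8.93) overlapped DFO.

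Genes of iron handling did not separate the compounds in this test. Of 24 measured genes of iron uptake, storage and export limma called 0, with 0 at an unadjusted p under 0.05 and a median difference of −0.00. TFRC, the transferrin receptor, whose mRNA is held stable when cells lack iron, read 11.73 and 11.64 with OICR623 and 12.59, 11.63, 11.63 and 11.70 with DFO. Its difference between the compounds was 0.09 (95% interval −0.04 to 0.23), and it was above DMSO by 0.32 with OICR623 (limma adjusted p = 0.045) and by 0.22 with DFO (0.018). SLC11A2, which imports ferrous iron, differed by −0.07 (−0.24 to 0.09), and HMOX1, which releases iron from heme, by −0.04 (−0.19 to 0.11). Of 25 genes of iron-sulfur clusters and heme and of 28 iron- and oxoglutarate-dependent dioxygenases, limma called 0, with 0 and 2 at an unadjusted p under 0.05. The metallothioneins MT1X and MT2A, which bind zinc and copper, differed by −0.15 (−0.33 to 0.03) and −0.04 (−0.13 to 0.05).

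Wnt pathway targets were read because SW480 cells hold constantly active β-catenin. Of 27 measured targets limma called 0 between the compounds, 14 lay above 0 and 13 below, and the median was 0.00. At an unadjusted p under 0.05 were 7 of them, 4 higher and 3 lower, where 5.67% of all genes were. BAMBI, a decoy receptor of the TGF-β family and a Wnt target, read 10.04 and 9.96 with OICR623, 10.91, 9.77, 9.82 and 9.22 with DFO, and 10.90 and 10.80 in DMSO 2 and 3. Its difference was 0.18 (95% interval 0.03 to 0.33, limma adjusted p = 0.80), and its difference from DMSO was −0.84 with OICR623 and −1.02 with DFO. AXIN2, LGR5, MYC and CCND1 differed by −0.03, 0.19, 0.14 and −0.01 and were not called.

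Of the stress genes fixed by name, CDKN1A, DDIT3, ATF3 and CYP1A1 did not pass the test. CDKN1A, the p21 gene, differed by −0.08 (95% interval −0.24 to 0.07), DDIT3, the CHOP gene, by 0.15 (−0.07 to 0.36), and CYP1A1, a target of the aryl hydrocarbon receptor, by −0.02 (−0.22 to 0.18). Of 40 targets of ATF4, the integrated stress response factor, and of 39 immediate early genes, limma called 0, with 5 and 9 at an unadjusted p under 0.05, all lower with OICR623, against 2.71% of all genes in that direction. The lowest difference of the ATF4 list, −0.66, was that of VEGFA, described above as a HIF target, so that member is not separate from that result. Overlap of the other members with the HIF list was not counted. Of the 26 genes that regulate mTOR, DDIT4 was the single called one, and DDIT4 stands in the HIF list too. Over the 30 gene lists, 26 held no called gene, and their medians ran from −0.12 to 0.03.

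GPR171, a G protein-coupled receptor gene, was the second gene lower with OICR623. It read 3.49 and 3.42 with OICR623 and 4.83, 3.86, 3.90 and 4.11 with DFO, a difference of −0.45 (SE 0.06, limma adjusted p = 0.0129), and its signal was among the lowest of the genes named. Its call was lost without either OICR623 array, DFO 2 or DFO 3. OR5P2, an olfactory receptor gene, read 4.60 and 4.66 with OICR623 and 4.39, 4.12, 4.28 and 3.84 with DFO, a difference of 0.44 (SE 0.06, limma adjusted p = 0.0112), also at low signal, and its call was lost without either OICR623 array or DFO 2. In the absence of detection calls, whether these dim signals stand above background was not tested.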

How the data were processed

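RNA of 13 cultures was read on 1-colour arrays. The authors' deposited table holds log2 signal for each transcript cluster, judged from its range. The submitters' processing notes name GCRMA and limma, with no version, order or step. Of 32321 clusters, 19158 carried 1 gene symbol in the platform annotation and 19128 of these were found by Entrez identifier in RefSeq (GRCh38.p14). For the 637 genes with several clusters, the one of highest mean was kept, giving 18404 genes. No filter was applied.

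Differences were fitted with limma 3.58.1 (R 4.3.3) over all 13 arrays, with 1 mean per group and the tier of the array median as a block, and p-values were adjusted by Benjamini-Hochberg over all genes. The script was tested on simulated data. Intervals are 95% for each single gene. The number of arrays limits the precision.

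The genes named include up to 12 called higher and up to 12 called lower, by size of difference, whose middle-tier arrays did not overlap (12 and 2 genes), up to 3 called members of each list, and 24 genes fixed by name. The other 16 called genes, and 14 further genes picked once their values were known, fall outside this rule. The members and lists were chosen with earlier results of these data known. Genes with no single-symbol cluster, CA9 and FTH1 among them, were not analysed here. Alternatives covered the block, scaling, dim genes, arrays used and each array left out.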

Additional observations from a re-analysis of the deposited data

Results flagged for a closer look

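Within groups of 4 arrays, after each array was centred on its median, single arrays stood apart in 11 of the 132 groups looked at. A rate of about 1 in 20 would hold for independent groups of like arrays. Here the groups share arrays, span 3 tiers and hold genes that move together, so the count cannot be read against that rate. The measure is the gap of the highest or lowest array to its nearest neighbour as a share of the range of the group. DMSO 1 stood above the other DMSO arrays for H2AC20 (0.852, at 4.72 against 4.12 to 4.21), KIF23 (0.952, at 4.44 against 3.81 to 3.84) and KIF18A (0.925, at 3.18 against 2.63 to 2.67). It also did so for AURKA (0.866), TTK (0.88), a mitotic kinase gene, and EGLN3 (0.846). DFO 1 stood above the other DFO arrays for H2AC20 (0.869, at 2.71 against 1.84 to 1.95) and LGR5 (0.961, at 0.55 against −0.47 to −0.44). It stood below them for ARRDC3 (0.852) and MT2A (0.888). DMSO 1 and DFO 1 make up the high tier, so for them array and tier cannot be told apart. DFO 2 stood below the other DFO arrays for H2AC21 (0.893, at 2.59 against 2.75 to 2.77).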

How the results depend on the processing

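For OICR623 against DFO, 31 genes were called, 29 higher and 2 lower. The total, the higher and the lower counts were 0, 0 and 0 without a block, 29, 26 and 3 in the middle tier alone, 21, 21 and 0 with the 6 arrays alone, and 9, 8 and 1 with centred arrays and no block. They were 34, 31 and 3 with centred arrays and the tier block, 14, 14 and 0 after quantile normalization with no block, 25, 24 and 1 with the block, and 40, 36 and 4 with the dimmer genes left out. They were 32, 29 and 3 with the mean of all clusters of a gene, 47, 39 and 8 with the tier as a random block, 51, 42 and 9 with a variance trend and robust variances, and 21, 21 and 0 over all clusters. Leaving out 1 array gave 8 to 32 calls, 8 to 29 higher and 0 to 4 lower. Of the 31 genes 24 were called in the middle tier alone too, 19 with the 6 arrays alone and 9 with centred arrays and no block.

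Same-numbered arrays of OICR623 and DFO had deviations that correlated at 0.29 and 0.08, and the labels state no pairing. OICR623 1 correlated best with DFO 1 (0.29) and OICR623 2 with DFO 3 (0.30). With 2 OICR623 arrays their deviations mirror each other, so these values are not separate checks and cannot settle a pairing. The numbers were not taken as pairs. In sample order OICR623 1 stands with DFO 2 (−0.08) and OICR623 2 with DFO 3, and such sets were not fitted. With the replicate block 0 genes were called, 0 higher and 0 lower, with 1812 at an unadjusted p under 0.05, and with the replicate and tier blocks together 17, 16 and 1. The replicate block gave 10 calls for OICR623 against DMSO and 78 for DFO, and both blocks gave 36 for OICR623.

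For OICR623 against DMSO, 135 genes were called, against 7 without a block, 81 in the middle tier, 19 centred with no block, 25 quantile-normalized with no block, 303 without the dimmer genes, 336 with a trend and 74 over all clusters, and 33 to 173 with 1 array left out. For DFO against DMSO, 847 were called, against 45, 274, 154 and 161 in the first 4 of these, and 494 to 846 with 1 array left out, the lowest without DFO 4.

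The 31 called genes kept their direction under each alternative that tested them, except the replicate block alone, where 28 did, and 24 of the 31 were tested with the dimmer genes left out. With the replicate block KIF23 was at −0.15, CKAP2L at −0.044 and KIF18A at −0.034. Genes that were not called changed sign as follows. With the replicate block TFRC was at −0.35, DDIT3 −0.17, MYC −0.33, LGR5 −0.47, BAMBI −0.33, AURKA −0.023, CENPE −0.29 and TTK −0.26. Without a block TFRC was at −0.20, MYC −0.14, LGR5 −0.10 and CYP1A1 0.026. Centred with no block TFRC was at −0.12, MYC −0.056, LGR5 −0.021, CCND1 0.0067, MT2A 0.0755, CYP1A1 0.11 and SLC2A1 0.033, and after quantile normalization with no block TFRC −0.14, MYC −0.042, LGR5 −0.0074 and CYP1A1 0.10. ATF3 was at 7e-04 and CYP1A1 at 0.063 in the middle tier and in the 6 arrays alone, and at 0.22 and 0.052 with both blocks. With 1 array left out ATF3 ran from −0.15 to 0.14, AXIN2 from −0.11 to 0.064, CCND1 from −0.048 to 0.026, CYP1A1 from −0.11 to 0.068, HMOX1 from −0.10 to 0.0165, SLC11A2 from −0.17 to 0.021 and SLC2A1 from −0.062 to 0.0135. The cause of these shifts was not tested. The median difference over all genes moved from 0.0014 in the main fit to −0.27 with the replicate block and to −0.11 without a block. The replicate block sets OICR623 1, of the middle tier, beside DMSO 1 and DFO 1, of the high tier. The sign changes listed for these fits were not corrected for the shift over all genes. OICR623 had 2 arrays, both in 1 tier.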

Other observations

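CFB, which encodes complement factor B and was chosen after its values were seen, read 7.25 and 7.07 with OICR623, 6.31, 6.26, 6.43 and 5.99 with DFO, and 6.50 and 6.07 in DMSO 2 and 3. Both OICR623 arrays lay above all 4 DFO arrays, with a difference of 0.99 (SE 0.20, 95% interval 0.55 to 1.44). It was not called (limma adjusted p = 0.173). Its difference from DMSO was 0.68 with OICR623 and −0.31 with DFO.

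OICR623 1 lay nearer to DFO than OICR623 2 did for DDIT4 (8.09 against 7.68) and H1-5 (9.91 against 10.51). It lay farther from DFO for H3C12 (7.15 against 7.03), and the arrays were close for H2AC8 (6.13 and 6.14) and H3C10 (7.31 and 7.30).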
